A study of Arabidopsis thaliana with 30 samples.

Results

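The genes described here are 123 of the 32820 genes measured in leaves of Arabidopsis thaliana that fell in wild-type leaves after 60 min of waterlogging and showed little difference before. They were chosen from FPKM, the fragments of a gene divided by its length and by library size, in the 21 wild-type libraries. A gene was kept if its mean there was at least 5 FPKM, which 12495 genes reached. Its difference between waterlogged leaves and their controls, as means of log2(FPKM + 1), had to be -0.8 or lower at 60 min and between -0.3 and 0.3 at 10 and at 30 min. Of 254 genes with that level and that fall at 60 min, 129 lay outside the windows of the earlier times, 74 of them already below -0.3 at 30 min and 48 above 0.3 at 30 min. Genes named BBX, JAZ, COR, LHC or PRR were left out by name, which removed BBX18 and BBX19. Because the wild-type differences chose the genes, they are given as a description without a test, and tests are given for comparisons between libraries that took no part in those differences. The WT libraries of 0 min entered the choice through the mean level alone.

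RNA was sequenced from systemic leaves, which are distant from the flooded roots, in 30 libraries that fell into 10 groups of 3. Plants labelled rbohD gave waterlogged leaves at 60 min and untreated controls at 60 and 0 min. Wild-type plants (WT, Col-0) gave waterlogged leaves at 10, 30 and 60 min and untreated controls at 0, 10, 30 and 60 min. RBOHD encodes a plasma membrane NADPH oxidase that makes superoxide outside the cell, and the labels name neither the rbohD allele nor the age of the plants. The series text speaks of 3 repeats made up from 15 plants for each genotype and time, and nothing ties a repeat to a culture or a day, so p-values measure the spread between these libraries, which may be partly technical. In bulk leaves, fewer cells of a type and less RNA per cell cannot be told apart.

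Waterlogging deprives roots of oxygen, and leaves that were never flooded respond to it through signals that travel from the root, among them electrical, calcium and reactive oxygen signals. Transcript levels in leaves also follow the light, the sugar supply and the circadian clock, so untreated leaves of the same time are the proper reference. Among the products of genes named below, flavonols screen ultraviolet light, ascorbate and tocopherol remove reactive oxygen in chloroplasts, and plastoquinone carries electrons in photosynthesis.

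The stretch before the gene start was examined in 120 of the 123 genes whose boundaries in the files match RefSeq (TAIR10.1). Within 250 bases the G-box, CACGTG, the site of many light and abscisic acid responsive factors, was found on either strand in 12 of the 120 genes, or 10.0%. It was found in 7.56% of genes of at least 5 FPKM and in 5.90% of all promoters. The letters of the G-box contain those of the shorter core ACGTG, which 28.3% of the 120 genes held, against 23.1% of genes of at least 5 FPKM and 21.8% of all promoters. The CCA1-binding site AAAAATCT was found in 10.0% of the 120 genes, against 6.78% and 6.38%, and the site II element TGGGCC in 8.33%, against 18.7% and 12.5%. The W-box core TTGAC was found in 45% of the 120 genes, against 43.4% and 44.3%. The 3 promoters printed below are among those of the 4 G-box holders with the largest WT fall at 60 min, shown because this motif had the largest ratio of its share in the genes to its share in all promoters. They are read 5′ to 3′ toward the gene, from RefSeq, with the G-box in capitals, and a match in these letters is not a measured binding site. AT1G19490 lies at chr1:6754074-6754323, minus strand, FRO7 at chr5:20208778-20209027, minus strand, and AT5G01260 at chr5:105018-105267, plus strand.
AT1G19490: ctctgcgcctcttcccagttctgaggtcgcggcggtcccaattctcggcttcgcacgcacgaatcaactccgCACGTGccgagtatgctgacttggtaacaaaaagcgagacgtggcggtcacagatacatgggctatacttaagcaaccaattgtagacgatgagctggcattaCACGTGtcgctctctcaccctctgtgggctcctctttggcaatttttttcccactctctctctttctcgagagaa
FRO7: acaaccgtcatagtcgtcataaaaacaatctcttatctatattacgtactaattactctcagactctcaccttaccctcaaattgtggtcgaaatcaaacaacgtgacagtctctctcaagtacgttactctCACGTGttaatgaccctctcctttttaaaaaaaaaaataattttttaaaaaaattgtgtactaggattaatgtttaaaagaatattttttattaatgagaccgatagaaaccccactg
AT5G01260: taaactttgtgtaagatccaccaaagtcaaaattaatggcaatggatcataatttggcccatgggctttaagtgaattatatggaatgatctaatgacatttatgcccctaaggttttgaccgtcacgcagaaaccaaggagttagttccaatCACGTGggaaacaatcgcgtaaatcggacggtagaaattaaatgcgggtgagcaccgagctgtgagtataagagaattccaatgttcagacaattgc
The motif began 178 and 75 bases before the gene start in AT1G19490, 118 in FRO7 and 97 in AT5G01260. The 12 G-box holders had a median WT difference at 60 min of -0.88, against -1.01 in the other 108 genes. In the libraries labelled rbohD their median was -1.39, against -1.68 in the other 108.

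The bounds that the authors deposited with each value imply 10.9 to 13.3 M fragments per library, and 289 to 964 fragments for the median gene of the group in a library. Replicates correlated across genes at 0.974 to 0.988. RBOHD itself did not separate the genotype labels in one direction, so the text speaks of libraries by their label. It stood at 20.99 ± 0.882 FPKM in rbohD leaves and 17.4 ± 0.261 FPKM in WT leaves at 0 min (mean ± SD, n = 3 each, as in the following values). In controls at 60 min it stood at 12.8 ± 0.379 FPKM in rbohD and 23.4 ± 1.97 FPKM in WT, and in waterlogged leaves at 60 min at 13.5 ± 1.95 FPKM in rbohD and 13.5 ± 0.259 FPKM in WT. Waterlogged WT leaves held 32.3 ± 0.468 FPKM at 10 min and 48.8 ± 0.544 FPKM at 30 min, against 15.999 ± 0.709 and 20.5 ± 0.247 FPKM in WT controls. Residual 18S ribosomal RNA (AT3G41768) was high, at 4050 to 5754 FPKM, in 10 libraries, all 9 labelled rbohD and 1 of waterlogged WT at 60 min. It lay at 1473 to 2640 FPKM in the other 20. Differences between the genotype labels therefore cannot be told apart from this split. Leaf markers were high in every library (RBCS1A, the small Rubisco subunit, at 12065 FPKM or more), and the root markers CASP1, EXPA7 and COBL9 were at 0 in 29, 30 and 27 libraries, with IRT1 at 0.923 FPKM or less. The summed guard cell markers KAT1 and FAMA ranged from 18.6 to 22.3 FPKM in waterlogged rbohD leaves at 60 min and from 25.7 to 27.8 FPKM in their controls, and from 20.5 to 21.02 FPKM in waterlogged WT leaves and 24.2 to 24.7 FPKM in their controls. In rbohD leaves this lay in KAT1, at 8.65 ± 1.12 FPKM in waterlogged leaves and 15.1 ± 0.726 FPKM in controls, while FAMA stood at 11.7 ± 1.17 FPKM in waterlogged leaves and 11.6 ± 0.361 FPKM in controls. SUC2, a phloem companion cell marker, stood at 95.1 ± 2.14 FPKM in waterlogged rbohD leaves and 78.9 ± 7.97 FPKM in rbohD controls. The part of these markers in the falls described here was not tested.

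By the choice of the genes, their fall in WT was late. Relative to WT at 0 min, the median of 120 genes stood at -0.15 in waterlogged leaves and -0.20 in controls at 10 min, and at -0.14 in waterlogged leaves and -0.01 in controls at 30 min. At 60 min it stood at -1.34 ± 0.02 in waterlogged leaves, against -0.31 ± 0.03 in controls (SD over 3 libraries). The controls of 60 min were thus also below those of 0 min, and the waterlogged leaves lay far below both. At 60 min all 3 waterlogged libraries lay below all 3 controls for 119 of the 123 genes, where 22.0% of all tested genes showed this, and the choice of the genes fixes most of that count. At 30 min, inside the window of the choice, 60 of the 123 had all waterlogged libraries below all controls, where 15.3% of all tested genes did, and at 10 min 13 did, where 11.3% of all tested genes did. The WT difference at 60 min was -1 or lower in 60 of the 120 genes, -1.5 or lower in 15 and -2 or lower in 4. The last genes inside the threshold were HDT4 (-0.804), IAA1 (-0.801) and SAT32 (-0.801), and the first outside it were AT1G68570 (-0.796), GSTU5 (-0.796) and AT1G55265 (-0.795).

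**Figure D1:**
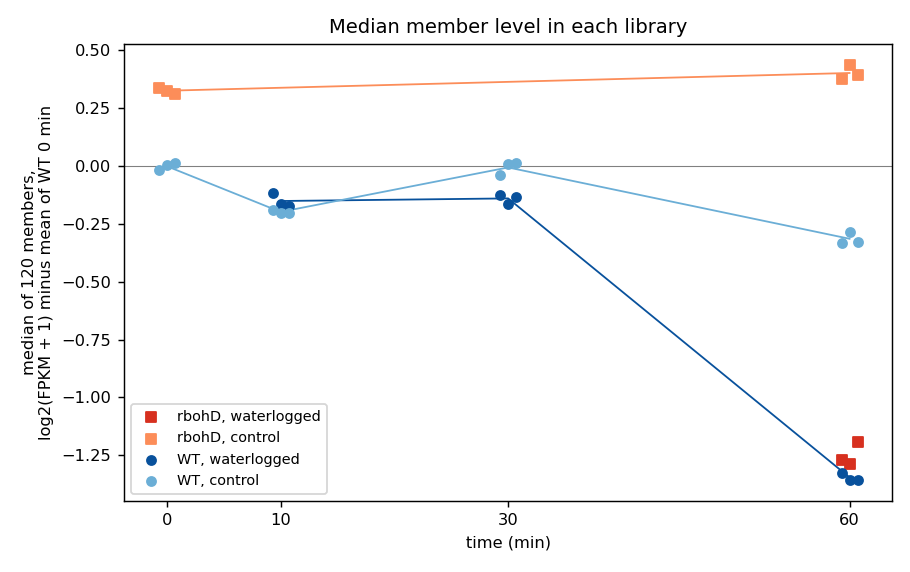
Median of 120 genes in each library (points) against time in min, as log2(FPKM + 1) minus the mean of WT at 0 min; lines join group means. Waterlogged leaves at 60 min lie near -1.25 in the libraries labelled rbohD and near -1.34 in WT, while the controls of 60 min stand at 0.40 in the libraries labelled rbohD and at -0.31 in WT.

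Of the 123 genes, 3 rest on a single library. ATMG01380 of the mitochondrial genome, psbI of the plastid genome and the small nucleolar RNA gene AT4G04485 were listed at 0 in all other WT libraries and at 946.9, 803 and 109 FPKM in WT control 60 min replicate 2. ATMG01380 was also listed at 906 and 292 FPKM in rbohD 0 min replicates 2 and 3. Such genes are short, and a listed 0 can be a failed estimate, so medians over levels leave them out and use the other 120. Median differences of the tested comparisons are over all 123 unless a smaller group is named. For waterlogged rbohD leaves against controls at 60 min that median was -1.64 over the 123 and -1.67 over the 120. The 120 genes ranged from 5.13 to 502 FPKM in their mean over the WT libraries, with a median of 28.5 FPKM. They lie on all 5 nuclear chromosomes, and 116 of the 123 are protein coding.

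**Figure D2:**
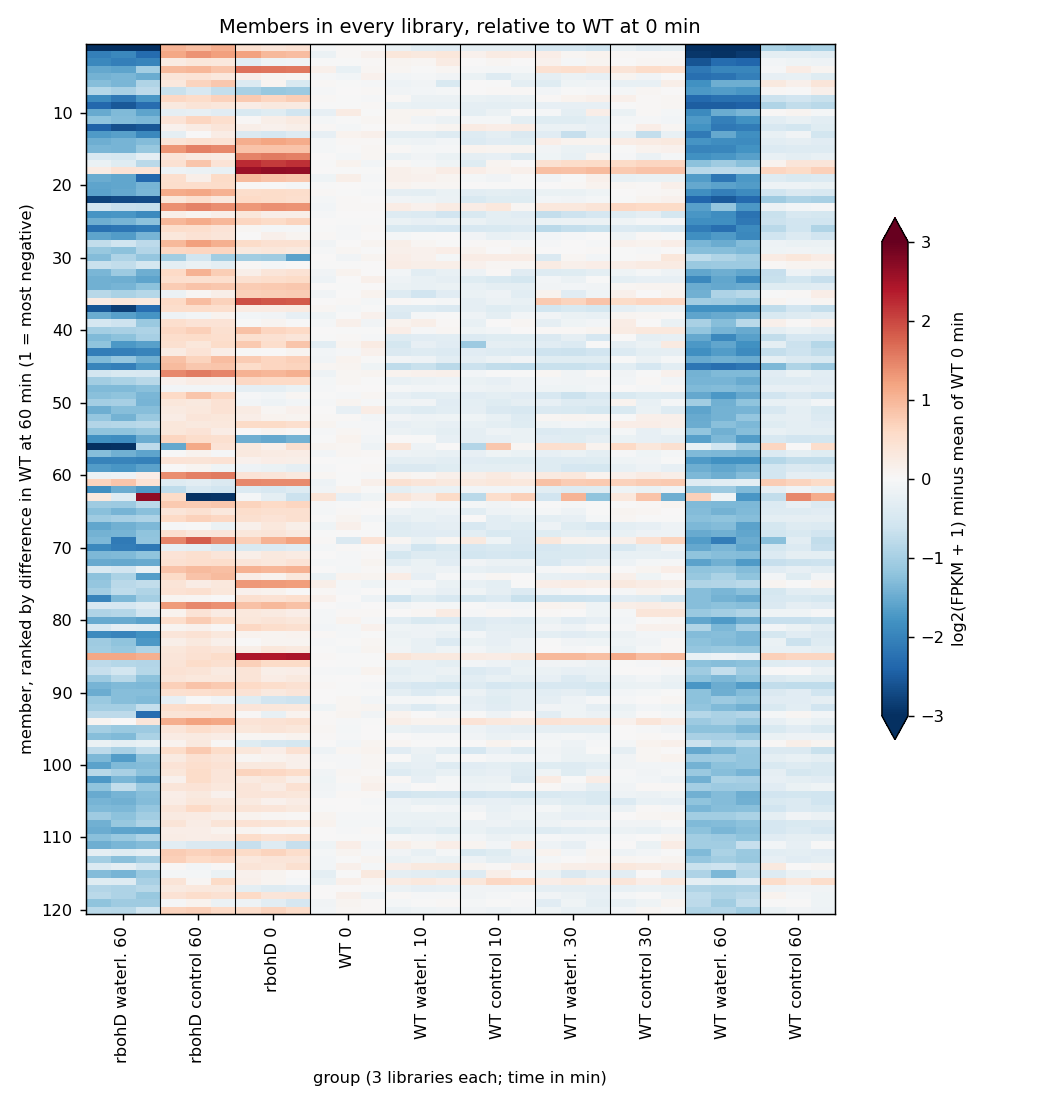
Each row is 1 of 120 genes, ranked from the most negative WT difference at 60 min, and each column 1 of the 30 libraries in 10 groups; colour gives log2(FPKM + 1) minus the mean of WT at 0 min, clipped at 3 either way. Both waterlogged groups of 60 min are blue in most rows, and a few rows are red in the libraries labelled rbohD at 0 min, among them CLH1 and TIFY7.

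The fall was tested in waterlogged rbohD leaves at 60 min against rbohD controls at 60 min. The difference comes from 6 libraries that the choice did not use. The spread behind its p-values was estimated over all 10 groups, those of WT included. Of the 123 genes, 115 fell (limma adjusted p under 0.05 over 17491 genes), where 32.7% of all tested genes were lower, and 4 rose, where 26.3% of all tested genes were higher. At least a 2-fold fall was found in 105 of the 123, where 3.46% of all tested genes fell that far. The tested genes average 1 FPKM or more, a lower minimum than the 5 FPKM asked of the 123. Differences of low genes are understated on this scale, and shares over genes of at least 5 FPKM are not given. ANNAT4 and AT5G07015 rose at least 2-fold, where 5.81% of all tested genes did. The median difference was -1.64 on the log2(FPKM + 1) scale, beside -0.05 over all tested genes. All 3 waterlogged libraries lay below all 3 controls for 114 of the 123, where 30.7% of all tested genes showed this, and above them for 3, where 25.2% did. Among the 120 genes with levels, AT3G62070, an uncharacterized protein gene, was the only one that did not pass the test, at 4.68 ± 0.768 FPKM in waterlogged leaves and 5.69 ± 1.28 FPKM in controls (mean ± SD, n = 3 each; log2 difference -0.23, limma adjusted p 0.198). In the libraries labelled rbohD the difference was more negative than in WT for 102 of the 120, where 57.2% of all tested genes showed this. That is a description without a test because the WT difference chose the genes. The rbohD controls stood above the WT controls for 106 of the 120 (median difference 0.75), where 50.9% of all tested genes stood below them (median -0.0049). The waterlogged leaves of both labels stood closer, with a median difference of 0.16, beside -0.04 over all tested genes.

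**Figure D3:**
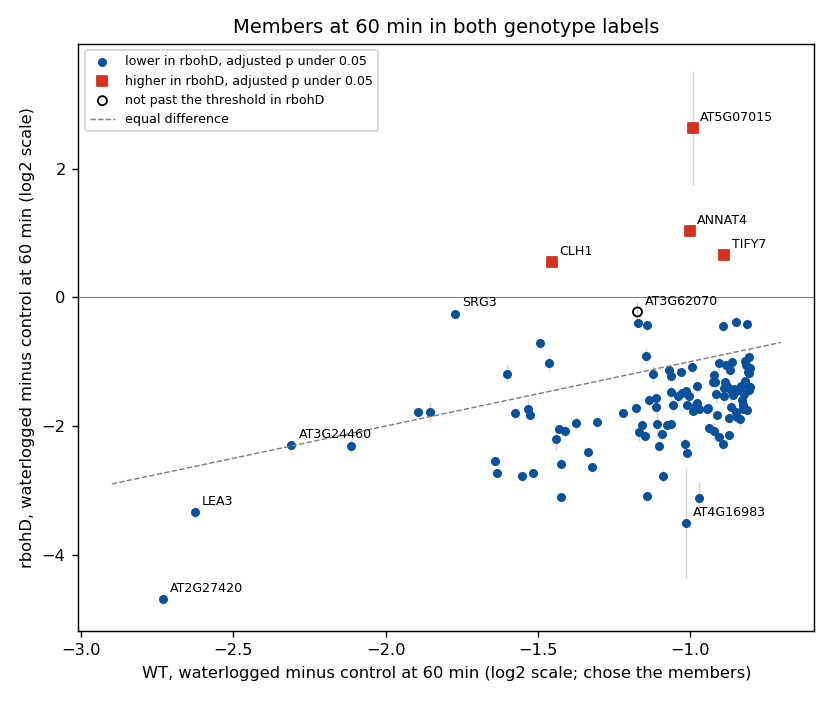
Log2 difference between waterlogged and control leaves at 60 min for 120 genes, in the libraries labelled rbohD (vertical, bars are the SE) against WT (horizontal, the difference that chose the genes). Most points lie below the dashed line of equal difference, and CLH1, ANNAT4, TIFY7 and AT5G07015 lie above 0 in the libraries labelled rbohD.

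The deepest falls came from genes of unlike kinds. AT2G27420, a papain-like cysteine proteinase gene (chromosome 2, 11726134 to 11727654), stood at 3.53, 3.98 and 4.59 FPKM in waterlogged rbohD leaves, against 131, 121 and 136 FPKM in rbohD controls. In WT it stood at 4.29, 4.29 and 3.32 FPKM in waterlogged WT leaves, against 32.7, 30.8 and 32.2 FPKM in WT controls. The groups do not overlap, and the waterlogged leaves of both labels reached nearly the same low level. The rbohD difference was -4.69 (SE 0.07, limma adjusted p 1.45e-23), the most negative of the 123. In the 15 WT libraries of 0, 10 and 30 min AT2G27420 had stood between 41.6 and 64.8 FPKM (median 52.04), so its WT controls of 60 min were themselves lower than any earlier library.

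LEA3 (AT1G02820, chromosome 1, 623656 to 624567), a late embryogenesis abundant protein gene of a family linked to drying and oxidative stress, stood at 35.96, 39.3 and 29.99 FPKM in waterlogged rbohD leaves, against 339.9, 391 and 361 FPKM in rbohD controls. The WT libraries held 19.4, 18.7 and 19.9 FPKM in waterlogged WT leaves, against 124, 127 and 122 FPKM in WT controls. The waterlogged libraries lay far below the controls under both labels, and all rbohD libraries lay above the WT libraries of the same condition. The rbohD difference was -3.34 (SE 0.08, limma adjusted p 6.11e-20). AT3G24460, a Serinc-domain membrane protein gene, stood at 4.57, 4.15 and 4.43 FPKM in waterlogged rbohD leaves, against 24.3, 25.95 and 25.7 FPKM in rbohD controls. Its WT libraries stood at 2.55, 3.31 and 3.08 FPKM in waterlogged WT leaves, against 19.3, 18.6 and 18.1 FPKM in WT controls. It differed by about the same amount under both labels, by -2.29 (SE 0.07, limma adjusted p 6.35e-19) in rbohD and by -2.31 in WT. The gene AT3G24463 lies within it on the same strand, so their reads may be shared. The dirigent-like gene AT1G65870 fell by 2.55 on the log2 scale in rbohD leaves (limma adjusted p 6.92e-19), and AT1G55960, of the polyketide cyclase and lipid transport family, fell by 2.73 (limma adjusted p 1.62e-22).

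**Figure D4:**
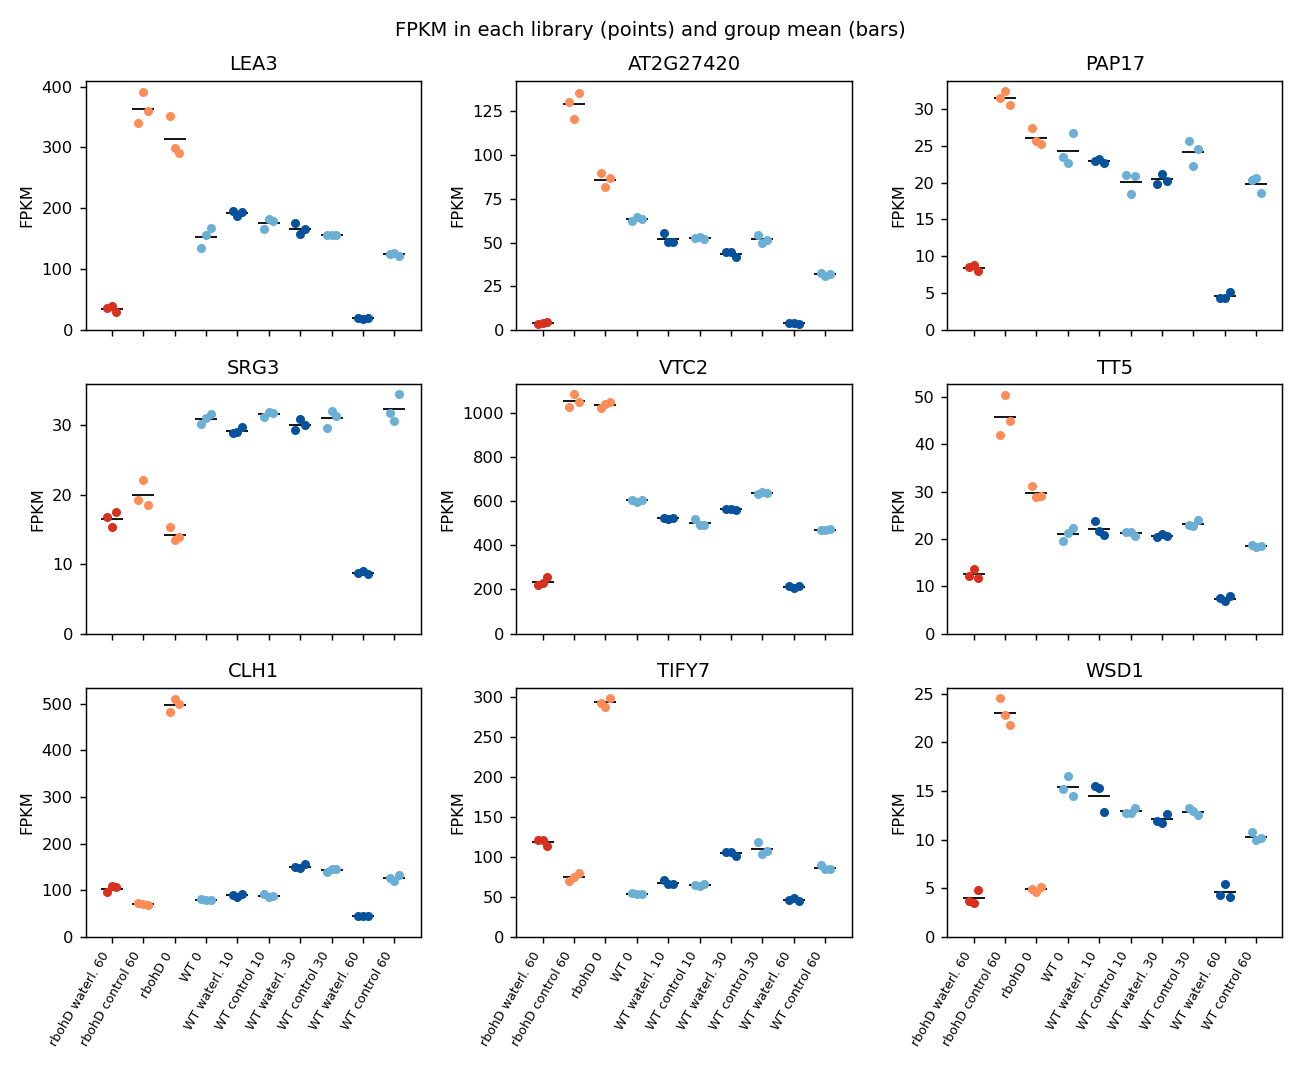
FPKM of 9 genes in each library (points) with group means (bars), libraries labelled rbohD on the left and WT on the right, time in min. LEA3, AT2G27420, PAP17, VTC2 and TT5 are low in both waterlogged groups of 60 min, CLH1 and TIFY7 are highest in rbohD at 0 min, and WSD1 in rbohD at 0 min is near the level of the waterlogged leaves.

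Both genes of phosphate economy were among the deepest WT falls, and they parted in the libraries labelled rbohD. PAP17, a purple acid phosphatase that frees phosphate and is induced by phosphate starvation, stood at 8.48, 8.78 and 8.04 FPKM in waterlogged rbohD leaves, against 31.5, 32.4 and 30.6 FPKM in rbohD controls. Its WT values were 4.30, 4.41 and 5.11 FPKM in waterlogged WT leaves, against 20.3, 20.6 and 18.6 FPKM in WT controls. Its fall in rbohD was -1.78 (SE 0.07, limma adjusted p 1.12e-16). SRG3, a glycerophosphodiester phosphodiesterase that releases glycerol phosphate from phospholipid remains, stood at 16.7, 15.3 and 17.5 FPKM in waterlogged rbohD leaves, against 19.2, 22.04 and 18.5 FPKM in rbohD controls. Its WT values were 8.72, 9.01 and 8.52 FPKM in waterlogged leaves, against 31.8, 30.6 and 34.6 FPKM in controls. The waterlogged rbohD libraries lay just below their controls, whereas those of WT lay far below theirs. The rbohD difference of SRG3 was -0.25 (SE 0.06, limma adjusted p 0.000818), and in a fit of only the 2 groups compared its adjusted p was 0.0641. AT5G20790, an uncharacterized protein gene, fell by 1.79 in rbohD leaves (limma adjusted p 9.99e-10), beside a WT difference of -1.86.

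The flavonoid genes follow the pathway to the flavonols in order. Of the 18 listed genes of that pathway 4 are among the 123, and with the glycosyltransferase AT1G06000 they form a group of 5, all of which fell in waterlogged rbohD leaves. TT4, chalcone synthase, which makes the first flavonoid, stood at 89.1, 84.5 and 108 FPKM in waterlogged rbohD leaves, against 179, 195 and 191 FPKM in rbohD controls. Its rbohD difference was -1.0 (SE 0.07, limma adjusted p 1.06e-11). TT5, chalcone isomerase, the next step, stood at 12.2, 13.6 and 11.7 FPKM in waterlogged rbohD leaves, against 41.98, 50.5 and 44.99 FPKM in rbohD controls. In WT it stood at 7.49, 6.85 and 7.87 FPKM in waterlogged WT leaves, against 18.7, 18.3 and 18.6 FPKM in WT controls. Waterlogged libraries of TT5 lay well below controls under both labels, with a rbohD difference of -1.79 (SE 0.06, limma adjusted p 5.72e-17). F3H, flavanone 3-hydroxylase, which gives dihydroflavonols, stood at 44.7, 44.3 and 48.4 FPKM in waterlogged rbohD leaves, against 156, 174 and 166 FPKM in rbohD controls. Its rbohD difference was -1.83 (SE 0.06, limma adjusted p 2.4e-18), the most negative of the listed 4. FLS1, flavonol synthase, which turns dihydroflavonols into flavonols, stood at 10.8, 11.2 and 14.6 FPKM in waterlogged rbohD leaves, against 34.5, 37.9 and 38.8 FPKM in rbohD controls. The waterlogged leaves were lower in every library, and the difference was -1.53 (SE 0.09, limma adjusted p 2.57e-13). AT1G06000, which adds rhamnose to flavonols, differed by -2.07 (SE 0.09, limma adjusted p 2.81e-15) in rbohD leaves and by -1.41 in WT. The rbohD controls rose between 0 and 60 min for TT4, TT5, F3H and FLS1, and waterlogged rbohD leaves differed from 0 min by -0.29 for TT4 and by -0.40 for FLS1 (log2 scale, limma adjusted p 0.000969 and 0.000367). The TT4 fall from 0 min had an adjusted p of 0.0617 in a fit of only the groups compared. Across the whole list, 7 of 11 tested flavonoid genes fell and 3 rose in waterlogged rbohD leaves, with a median of -1.0, beside -0.05 over all tested genes, of which 32.7% fell and 26.3% rose.

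All 6 light signalling and clock genes fell in waterlogged rbohD leaves. RUP2, a repressor of the UV-B receptor UVR8, stood at 10.3, 10.03 and 10.3 FPKM in waterlogged rbohD leaves, against 43.3, 44.998 and 45.5 FPKM in rbohD controls. The WT libraries held 9.50, 10.9 and 8.84 FPKM in waterlogged WT leaves, against 19.1, 19.5 and 19.999 FPKM in WT controls. Both labels had nearly the same waterlogged level and different controls, and the rbohD difference was -2.02 (SE 0.06, limma adjusted p 1.57e-18). CDF1, a repressor of the flowering regulator CONSTANS, stood at 16.8, 16.1 and 17.9 FPKM in waterlogged rbohD leaves, against 57.03, 59.4 and 51.6 FPKM in rbohD controls. Its rbohD difference was -1.67 (SE 0.05, limma adjusted p 5.94e-18). RVE8, a morning clock factor that activates evening genes, stood at 20.04, 21.8 and 23.8 FPKM in waterlogged rbohD leaves, against 67.98, 71.8 and 64.5 FPKM in rbohD controls. Its difference was -1.60 (SE 0.05, limma adjusted p 1.21e-17), and in WT its controls had themselves decreased by 0.58 between 0 and 60 min. PMI2, needed for light-driven chloroplast movement, differed by -1.73 (SE 0.05, limma adjusted p 9.53e-19), and UNE10, a phytochrome-interacting bHLH factor, by -1.52 (SE 0.05, limma adjusted p 1.03e-17). FBH3, a bHLH activator of CONSTANS, moved least, at 18.3, 17.2 and 17.999 FPKM in waterlogged rbohD leaves, against 22.6, 26.2 and 21.7 FPKM in rbohD controls, a difference of -0.38 (SE 0.07, limma adjusted p 5.27e-05). Of 11 listed morning clock genes tested, 10 fell and 1 rose in waterlogged rbohD leaves (median -1.26). Of 7 tested genes of the list named evening clock, 3 fell and 3 rose (median -0.01). That list also holds CDF1, CDF2 and CDF3, so its counts are not those of evening genes alone. Its falls were GI, CDF1 and CDF3, and its rises ELF3, TOC1 and CDF2. Of 20 tested light signalling genes 10 fell and 8 rose (median -0.51). These counts stand beside the whole comparison, where 32.7% of all tested genes fell and 26.3% rose. Only RVE8, CDF1 and RUP2 of these lists are among the 123.

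Ascorbate and proline genes include the most abundant of the 120 genes. VTC2 (AT4G26850, chromosome 4, 13498956 to 13501701), GDP-L-galactose phosphorylase, the committed step of ascorbate synthesis, stood at 222, 228 and 257 FPKM in waterlogged rbohD leaves, against 1029, 1087 and 1051 FPKM in rbohD controls. Its WT values were 215, 208 and 214 FPKM in waterlogged WT leaves, against 469.7, 469 and 474 FPKM in WT controls. Waterlogged leaves of both labels stood near each other, and the rbohD controls were more than 2-fold above the WT controls in every library. The rbohD difference was -2.16 (SE 0.04, limma adjusted p 2.54e-22). AT5G21100, an ascorbate oxidase of the cell wall space, differed by -1.42 (SE 0.06, limma adjusted p 1.7e-15), and GPX7, a plastid glutathione peroxidase, by -1.05 (SE 0.08, limma adjusted p 3.32e-11). P5CS1, which controls proline synthesis, stood at 78.4, 74.3 and 86.2 FPKM in waterlogged rbohD leaves, against 102, 109.6 and 103 FPKM in rbohD controls. Its WT libraries stood at 57.1, 58.7 and 57.8 FPKM in waterlogged WT leaves, against 129, 133 and 132 FPKM in WT controls. The rbohD difference of P5CS1 was -0.39 (SE 0.04, limma adjusted p 5.9e-08), beside -1.17 in WT. ProT3, a proline transporter, differed by -1.57 (SE 0.08, limma adjusted p 1.52e-14) in rbohD leaves.

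All 6 genes of isoprenoid and lipid metabolism fell in waterlogged rbohD leaves, where 115 of the 123 and 32.7% of all tested genes fell. Their median difference was -2.16, beside -1.64 over the 123 and -0.05 over all tested genes. SPS1, which makes the side chain of plastoquinone, differed by -2.15 (SE 0.05, limma adjusted p 5.38e-20). TAT7, a tyrosine aminotransferase that feeds tocopherol synthesis, differed by -2.18 (SE 0.06, limma adjusted p 8.26e-19), and AAE7, which activates acetate to acetyl-CoA, by -2.42 (SE 0.04, limma adjusted p 3.94e-23). SQP1, a squalene monooxygenase-like gene, differed by -2.05 (SE 0.04, limma adjusted p 4.72e-21), and cPT4, a cis-prenyltransferase, by -1.99 (SE 0.06, limma adjusted p 4.67e-18). Each of these was at -1.99 or lower in rbohD leaves, while in WT they had differed by -0.87 to -1.43. WSD1, a wax ester synthase, stood at 3.67, 3.48 and 4.83 FPKM in waterlogged rbohD leaves, against 24.5, 22.8 and 21.8 FPKM in rbohD controls. At 0 min the rbohD libraries of WSD1 held 4.93, 4.63 and 5.16 FPKM, against 15.2, 16.6 and 14.5 FPKM in WT at 0 min. The rbohD controls of 60 min were thus the only high rbohD group, 2.02 above 0 min (limma adjusted p 9.94e-15), and the waterlogged leaves differed from those controls by -2.28 (SE 0.09, limma adjusted p 2.56e-16). Against rbohD at 0 min the waterlogged leaves of WSD1 differed by only -0.25 (limma adjusted p 0.0197), and that adjusted p was 0.124 without waterlogged replicate 2, 0.0844 without waterlogged replicate 1 and 0.0732 without 0 min replicate 3.

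All 5 genes given a role in nutrient and ion transport fell in waterlogged rbohD leaves, where 115 of the 123 and 32.7% of all tested genes fell. The group includes a ferric reductase. It does not hold every transporter gene named here, since ProT3 and AT3G56290 are described elsewhere. AMT1;2, a high-affinity ammonium transporter, stood at 14.5, 14.4 and 17.1 FPKM in waterlogged rbohD leaves, against 99.7, 113 and 107 FPKM in rbohD controls. In WT it stood at 9.14, 9.34 and 10.6 FPKM in waterlogged WT leaves, against 29.2, 29.5 and 29.7 FPKM in WT controls. The rbohD controls were far above the WT controls. The rbohD difference of -2.73 (SE 0.06, limma adjusted p 5.28e-21) was the most negative of these 5 genes. SULTR3;1, a sulfate transporter of chloroplasts, differed by -1.74 (SE 0.06, limma adjusted p 5.68e-18), and KT2/3, a phloem potassium channel also called AKT2, by -1.35 (SE 0.05, limma adjusted p 1.72e-16). CLC-B, a vacuolar anion transporter of the chloride channel family, differed by -1.16 (SE 0.05, limma adjusted p 6.08e-16), and FRO7, the ferric reductase of chloroplasts, by -1.22 (SE 0.03, limma adjusted p 1.06e-19).

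Auxin and cell wall genes fell as well, 4 of 4 in each group, where 115 of the 123 fell in waterlogged rbohD leaves. IAGLU, which joins glucose to auxin, stood at 7.25, 5.92 and 9.08 FPKM in waterlogged rbohD leaves, against 69.97, 70.3 and 68.1 FPKM in rbohD controls. Its rbohD difference was -3.08 (SE 0.08, limma adjusted p 9.1e-20), beside -1.14 in WT. The auxin-responsive repressor genes IAA1 and IAA14 lie on chromosome 4 with 1 gene between them. IAA1 differed by -1.09 (SE 0.09, limma adjusted p 5.7e-10) and IAA14 by -0.41 (SE 0.08, limma adjusted p 5.39e-05). AT1G20470, a SAUR-like gene, differed by -1.74 (SE 0.16, limma adjusted p 1.68e-09). Of 13 listed early auxin genes tested, 4 fell and 4 rose in waterlogged rbohD leaves (median 0.0025), where 32.7% of all tested genes fell and 26.3% rose. TBL26, of the family that acetylates wall polysaccharides, stood at 8.41, 8.18 and 12.6 FPKM in waterlogged rbohD leaves, against 51.8, 53.7 and 48.1 FPKM in rbohD controls. The WT libraries held 5.19, 6.07 and 6.04 FPKM in waterlogged WT leaves, against 25.9, 30.9 and 28.1 FPKM in WT controls. The groups do not overlap, with a rbohD difference of -2.30 (SE 0.11, limma adjusted p 7.65e-15). AT1G23205, a pectin methylesterase inhibitor-like gene, differed by -2.78 (SE 0.08, limma adjusted p 2.57e-19), its relative AT3G17130 by -2.10 (SE 0.13, limma adjusted p 1.1e-12), and EXP3, an expansin that loosens walls, by -1.08 (SE 0.08, limma adjusted p 2.49e-11).

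BT1, a BTB and TAZ domain scaffold protein gene, stood at 23.2, 24.4 and 24.8 FPKM in waterlogged rbohD leaves, against 207, 233 and 203 FPKM in rbohD controls. Its WT values were 30.7, 27.8 and 31.5 FPKM in waterlogged WT leaves, against 77.7, 85.9 and 82.6 FPKM in WT controls. Waterlogged leaves of both labels stood near each other, and the rbohD difference was -3.10 (SE 0.06, limma adjusted p 1.37e-22). Among kinases that bind calcineurin B-like calcium sensors, CIPK5 differed by -1.97 (SE 0.07, limma adjusted p 1.93e-17) and SR1 by -1.68 (SE 0.06, limma adjusted p 1.65e-16). ATSPS4F, a sucrose-phosphate synthase, which makes sucrose for export, differed by -1.72 (SE 0.05, limma adjusted p 4.46e-18). The bZIP gene AT1G19490, whose promoter is printed above, stood at 2.40, 2.22 and 3.09 FPKM in waterlogged rbohD leaves, against 24.9, 22.4 and 22.9 FPKM in rbohD controls. Its difference was -2.78 (SE 0.09, limma adjusted p 7.52e-18), and in WT the controls had decreased by 1.11 between 0 and 60 min, about as far as the waterlogged leaves lay below them (-1.09). Among the most abundant of the 123, AT1G73600, a methyltransferase of phosphocholine synthesis, differed by -1.17 (SE 0.03, limma adjusted p 3.46e-19). HBP1, a heme-binding protein gene, differed by -2.40 (SE 0.07, limma adjusted p 2.7e-19), and AT3G56290, annotated as a potassium transporter in RefSeq, by -2.13 (SE 0.08, limma adjusted p 5.26e-17).

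**Figure D5:**
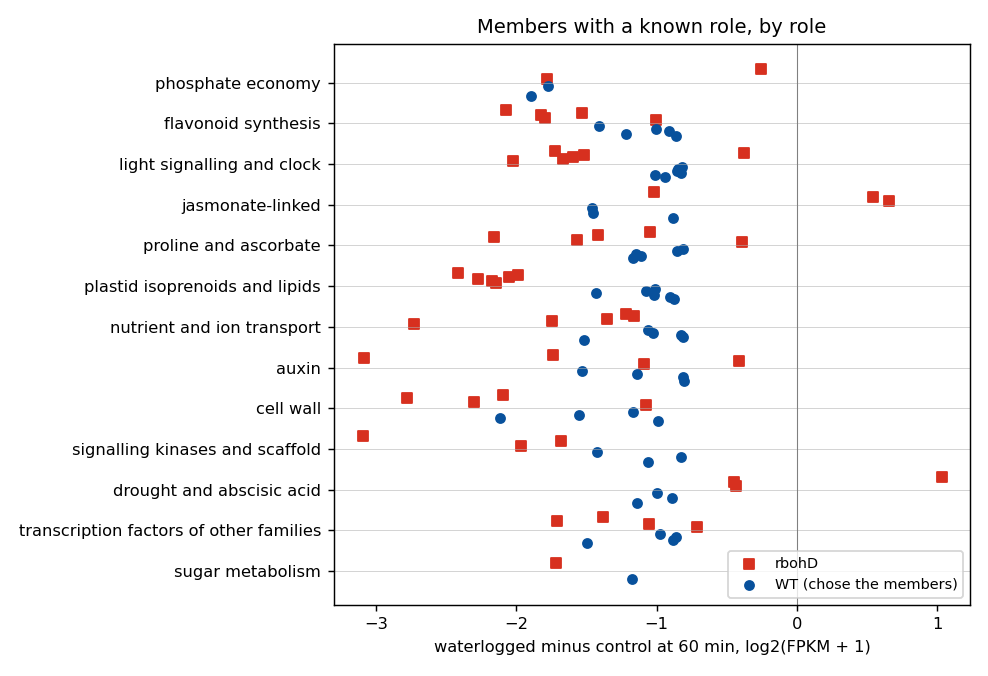
Log2 difference between waterlogged and control leaves at 60 min for the 51 genes given a role, in libraries labelled rbohD (squares) and in WT (circles, the difference that chose the genes). Circles lie at -0.80 or lower in every row, and squares lie right of 0 in the jasmonate-linked row and in the drought and abscisic acid row only.

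Of the 3 jasmonate-linked genes, 2 rose and 1 fell in waterlogged rbohD leaves. CLH1, chlorophyllase, which removes the tail of chlorophyll and is known as a jasmonate-induced gene, stood at 95.9, 108 and 107 FPKM in waterlogged rbohD leaves, against 72.5, 70.6 and 68.9 FPKM in rbohD controls. In WT it stood at 45.5, 45.7 and 45.05 FPKM in waterlogged WT leaves, against 126, 120.1 and 132 FPKM in WT controls. At 0 min CLH1 held 483, 510.5 and 499 FPKM in rbohD leaves, against 81.1, 79.98 and 79.2 FPKM in WT leaves. The highest rbohD level was thus that of 0 min, the controls were the lowest rbohD group, and the waterlogged leaves lay between them. CLH1 rose in waterlogged rbohD leaves by 0.54 (SE 0.05, limma adjusted p 4.1e-10) over controls and differed by -1.45 in WT. TIFY7, also called JAZ9, a repressor of jasmonate signalling that the names left out did not cover, stood at 122, 121 and 113 FPKM in waterlogged rbohD leaves, against 70.1, 74.95 and 80.2 FPKM in rbohD controls. Its WT libraries stood at 45.8, 48.6 and 45.3 FPKM in waterlogged WT leaves, against 89.9, 85.1 and 85.6 FPKM in WT controls. It rose by 0.66 (SE 0.05, limma adjusted p 9.37e-11) in rbohD leaves. HPL1 is a hydroperoxide lyase gene, of an enzyme family that makes green leaf volatiles from the same lipid peroxides. Whether its product is active in these plants was not measured. HPL1 stood at 6.44, 5.55 and 3.82 FPKM in waterlogged rbohD leaves, against 10.7, 14.02 and 10.2 FPKM in rbohD controls. Unlike CLH1 and TIFY7 it fell, with a difference of -1.02 (SE 0.13, limma adjusted p 3.9e-07). Of 17 tested genes of the jasmonate list, none of which is among the 123, 15 rose and 1 fell in waterlogged rbohD leaves (median 2.13), where 26.3% of all tested genes rose and 32.7% fell. In rbohD controls 16 of the 17 fell between 0 and 60 min (median -2.37), where 13.0% of all tested genes fell.

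The genes of drought and abscisic acid also moved apart. ANNAT4, an annexin that binds membranes with calcium, stood at 52.9, 58.8 and 44.7 FPKM in waterlogged rbohD leaves, against 24.7, 26.1 and 23.7 FPKM in rbohD controls. The WT libraries held 24.9, 26.1 and 26.3 FPKM in waterlogged WT leaves, against 55.7, 52.5 and 49.3 FPKM in WT controls. The waterlogged rbohD libraries all lay above their controls, with a difference of 1.03 (SE 0.08, limma adjusted p 5.36e-11), whereas those of WT lay below theirs. RD20, a caleosin of lipid bodies that is induced by drying, stood at 40.3, 43.1 and 41.5 FPKM in waterlogged rbohD leaves, against 51.1, 64.3 and 55.3 FPKM in rbohD controls. Its fall in rbohD was -0.44 (SE 0.06, limma adjusted p 3.12e-06), beside -1.14 in WT. AFP3, a negative regulator of abscisic acid signalling, differed by -0.45 (SE 0.09, limma adjusted p 0.000116). Of 15 tested genes of the abscisic acid and dehydration list, 10 fell and 1 rose in waterlogged rbohD leaves (median -0.50), where 32.7% of all tested genes fell and 26.3% rose. Among transcription factors, MYB47 differed by -0.71 (SE 0.07, limma adjusted p 8.03e-09), MYB106, a factor of leaf hair and cuticle development, by -1.06 (SE 0.09, limma adjusted p 3.91e-10), HSFC1, a heat stress factor, by -1.71 (SE 0.22, limma adjusted p 5.35e-07) and SPL11, a phase change factor, by -1.38 (SE 0.09, limma adjusted p 3.26e-12). HSFC1 stood at 3.24, 3.24 and 0.517 FPKM in waterlogged rbohD leaves, against 8.58, 8.77 and 9.12 FPKM in rbohD controls, so 1 low library enlarges its difference.

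The other 69 of the 120 genes, which were given no role here, hold 67 that fell in waterlogged rbohD leaves, 1 that rose and 1 that did not pass the test, with a median of -1.67. Of all tested genes, 32.7% fell and 26.3% rose, with a median of -0.05. Some of the 69 varied widely between replicates. AT5G07015, a long noncoding RNA gene that overlaps the factor gene NF-YB2 on the opposite strand, stood at 8.67, 4.92 and 48.004 FPKM in waterlogged rbohD leaves, against 10.5 FPKM in 1 rbohD control and 0.0197 FPKM or less in the other 2. The groups overlap, and the difference of 2.63 (SE 0.89, limma adjusted p 0.0145) was 1.73 with an adjusted p of 0.115 without waterlogged replicate 3, and the adjusted p was 0.084 without control replicate 2, 0.0811 without control replicate 3 and 0.13 in a fit of only the 2 groups compared. AT4G06665, which overlaps the beta-amylase gene CT-BMY on the opposite strand, stood at 41.2, 23.7 and 45.98 FPKM in waterlogged rbohD leaves, against 295, 376 and 290.0 FPKM in rbohD controls, a difference of -3.12 (SE 0.25, limma adjusted p 2.34e-10). The protein gene AT4G16983, which overlaps the more abundant AT4G16980 on the opposite strand, differed by -3.50 (SE 0.86, limma adjusted p 0.00122), with an adjusted p of 0.121 in a fit of only the 2 groups compared and a difference of -1.87 without waterlogged replicate 1. Its groups overlap, with 63.2 FPKM in waterlogged rbohD replicate 3 against 36.8 FPKM in rbohD control replicate 1. In all, 38 of the 123 genes overlap another gene, 34 of them on the opposite strand. Strand use in counting is not given in the sources used here, so reads of such pairs cannot be told apart. Besides the pair AT3G24460 and AT3G24463, SQP1 and its relative AT5G24155 are neighbours on chromosome 5, and AT5G24155 differed by -1.19 (SE 0.13, limma adjusted p 2.63e-08).

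At 0 min, before any treatment, the genes already differed between the labels. Of the 123 genes 73 were higher in rbohD than in WT at 0 min (limma adjusted p under 0.05), where 16.4% of all tested genes were, and 15 were lower, where 16.0% were. The median difference was 0.33, beside -0.01 over all tested genes. Higher by at least 2-fold were 14 of the 123, where 2.53% of all tested genes were, and lower by at least 2-fold were SRG3, AT3G62070 and WSD1, where 0.475% were. ATMG01380, whose rbohD level rests on 2 libraries, is counted among the 73 and the 14. CLH1 differed by 2.62 (SE 0.05, limma adjusted p 1.07e-22), TIFY7 by 2.42 (SE 0.05, limma adjusted p 4.77e-21) and HPL1 by 2.18 (SE 0.13, limma adjusted p 2.8e-12). RD20 stood at 131, 125 and 123 FPKM in rbohD leaves, against 34.2, 34.4 and 32.3 FPKM in WT leaves, a difference of 1.88 (SE 0.06, limma adjusted p 6.17e-17). TBL26 differed by 1.61 (SE 0.11, limma adjusted p 2.27e-11) and MYB47 by 1.51 (SE 0.07, limma adjusted p 2.96e-14). In the other direction SRG3 stood at 15.4, 13.4 and 13.9 FPKM in rbohD leaves, against 30.1, 31.1 and 31.6 FPKM in WT leaves, a difference of -1.07 (SE 0.06, limma adjusted p 7.02e-13). All 17 tested genes of the jasmonate list were higher in rbohD at 0 min (median 2.64), and 18 of 19 aliphatic glucosinolate genes, none of which is among the 123, were higher too (median 0.68), where 16.4% of all tested genes were higher. These differences lie across the ribosomal RNA split.

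Untreated rbohD leaves also changed between 0 and 60 min. Of the 123 genes, 43 rose in rbohD controls at 60 min against rbohD at 0 min, where 10.2% of all tested genes rose, and 23 fell, where 13.0% fell. The median difference was 0.14, beside -0.0049 over all tested genes. WSD1 and FLS1 rose at least 2-fold, where 0.103% of all tested genes did, by 2.02 and 1.13 on the log2 scale (limma adjusted p 9.94e-15 and 3.66e-10). At least a 2-fold fall was found in 7 genes, where 2.18% of all tested genes fell that far: CLH1 (-2.80), TIFY7 (-1.95), ANNAT4 (-1.81), HPL1 (-1.61), MYB47 (-1.23), RD20 (-1.14) and ATMG01380, which rests on 2 libraries. In WT controls the same interval gave a median of -0.31, a description without a test, and there CLH1, TIFY7 and ANNAT4 stood 0.65, 0.68 and 0.67 higher at 60 min.

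Set against 0 min instead of the controls of 60 min, waterlogged rbohD leaves gave nearly the same count. Of the 123 genes, 117 were lower, ATMG01380 included, where 31.7% of all tested genes were, and 2 were higher, where 23.1% were. At least 2-fold lower were 100 of the 123, where 4.09% of all tested genes were. The median difference was -1.52, beside -0.05 over all tested genes. The 2 higher genes were SRG3, by 0.20 (SE 0.06, limma adjusted p 0.00592), and FBH3, by 0.23 (SE 0.07, limma adjusted p 0.00743), and SRG3 had an adjusted p of 0.0863 in a fit of only the groups compared. CLH1 and TIFY7, which rose against the controls of 60 min, fell against 0 min, with differences of -2.25 (SE 0.05, limma adjusted p 1.99e-21) and -1.30 (SE 0.05, limma adjusted p 3.85e-16). ANNAT4 likewise fell against 0 min, with a difference of -0.77 (SE 0.08, limma adjusted p 9.96e-09). This comparison shares libraries with the other rbohD comparisons and is no independent evidence beside them.

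Other listed groups of genes were counted in the same comparison of waterlogged rbohD leaves at 60 min with their controls, in which 32.7% of all tested genes fell and 26.3% rose. All 11 tested genes of the dark or low sugar list rose (median 1.89), and none of them is among the 123. Of 17 tested chlorophyll and carotenoid synthesis genes 8 fell and 4 rose (median -0.14), of 16 iron genes 9 fell and 7 rose (median -0.32), and of 19 aliphatic glucosinolate genes 12 fell and 3 rose (median -0.20). The lists hold 180 genes in all, 8 of which are among the 123.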

How the data were processed

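Leaf RNA was sequenced in 30 libraries. The FPKM values were deposited by the authors in 1 file per library, and per the submitters' processing notes Trim Galore 0.6.7, HISAT2 2.2.1, Cufflinks 2.2.1, Cuffdiff and the TAIR10 build were used. FPKM is scaled to library size and gene length. Low values came out as whole fragments in 46.4% to 50.4% of cases (within 0.02 of a whole number, up to 10.5 fragments), so counts were not recovered and no count model was used.

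Here files were joined by gene identifier, 32820 genes were kept, and 99.1% of identifiers matched RefSeq. The 17491 genes averaging 1 FPKM or more were fitted as log2(FPKM + 1) with limma 3.58.1 (R 4.3.3), all 10 groups in 1 fit with 20 residual degrees of freedom, two-sided, Benjamini-Hochberg adjusted over all tested genes at 0.05. On this scale differences of low genes are understated. Summaries used numpy 2.4.6 and pandas 2.3.3 under Python 3.11.15, and figures matplotlib 3.10.9. The fit was tested on simulated data.

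Tested were the 4 comparisons whose differences share no WT library of 10, 30 or 60 min with the choice, though the 1 fit takes its spread from those libraries too. The members and the 11 gene lists were chosen with earlier results of these data known, and the role groups after the values were seen. Genes were named for the most negative WT or rbohD differences, the most positive rbohD differences, the largest differences at 0 min or over time, abundance, membership in a list, a place at the threshold, or neighbouring another member; further genes are named as holders of a role or of a printed promoter, or as the one gene not called. The sequence of 1 further promoter is not reported here. Alternatives tried were a replicate block, a fit of only the groups compared, quantile normalization, a pseudocount of 0.1, no filter, a stricter minimum of 5 FPKM, trend and robust options, equal totals of protein-coding genes, and leaving out each library.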

Additional observations from a re-analysis of the deposited data

Results flagged for a closer look

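In 3 genes every waterlogged library of one genotype label lay above all of its controls at 60 min while every waterlogged library of the other lay below all of its controls. Of all tested genes, 25.2% had all waterlogged libraries above all controls in rbohD, and 22.0% had all of them below in WT. The share with both is not given, so the count of 3 cannot be called unusual. The choice of the genes fixes most of the WT part. The difference between the labels was not tested, because the WT libraries chose the genes. The log2 difference in rbohD minus that in WT was 2.00 for CLH1, 2.03 for ANNAT4 and 1.54 for TIFY7. All 3 were higher in rbohD than in WT at 0 min, where 16.4% of all tested genes were. All 3 were also lower in rbohD controls at 60 min than in rbohD at 0 min, where 13.0% of all tested genes were. The 18S ribosomal RNA level differs between the labels as well, and its part was not tested.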

How the results depend on the processing

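In the comparison of waterlogged rbohD leaves with their controls at 60 min, 113 to 115 genes were called lower and 3 or 4 higher under every setting tried. The median moved to -1.74 with a pseudocount of 0.1, and leaving out a library gave 115 lower, 3 to 4 higher and medians of -1.66 to -1.61. For rbohD controls at 60 min against 0 min the median moved to 0.10 with protein-coding genes at equal totals. Leaving out a library gave 18 to 22 lower, 37 to 42 higher and medians of 0.12 to 0.15. For waterlogged rbohD leaves against 0 min the median moved to -1.47 under quantile normalization and -1.60 with a pseudocount of 0.1, and 1 gene was called higher in a fit of only the groups compared. Leaving out a library gave 115 to 117 lower, 2 higher and medians of -1.54 to -1.51. For rbohD against WT at 0 min the median moved to 0.27 under quantile normalization and 0.35 at equal totals. Leaving out a library gave 12 to 15 lower, 69 to 71 higher and medians of 0.30 to 0.34. The cause of these shifts was not tested. No median reversed, and no single gene result that was called, as reported or under the setting, changed sign. Sign changes occurred 12 times, in 5 gene results that were called neither as reported nor under the setting, among them AT4G16983 in rbohD controls at 60 min against 0 min (-0.31 as reported, 0.46 without control replicate 1).

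The choice of the genes itself gave 146 genes with a pseudocount of 0.1 (118 shared with the 123), 115 under quantile normalization (109 shared) and 111 at equal totals (111 shared). Leaving out a WT library gave 112 to 128, and the lowest was without WT control 60 min replicate 2, which carries the 3 genes otherwise listed at 0 (110 shared). Libraries with the same replicate number deviated from their group means with correlations of -0.0928 to 0.0704. Such values cannot settle whether these libraries share a culture or a day, which the labels do not give. With the replicate number as a block, 115 genes were called lower and 4 higher in waterlogged rbohD leaves against controls, 24 and 44 in controls against 0 min, 117 and 2 in waterlogged leaves against 0 min, and 15 and 74 in rbohD against WT at 0 min. For single named genes, 56 calls were lost and 11 gained over all settings, 1848 calls held, and 433 results were called neither as reported nor under the setting.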
